A study of Mus musculus with 24 samples.

Results

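The comparison described here asks how the RNA of heart muscle cells differed between a virus carrying guide RNA against Myocd and a Cre virus. Both viruses were given to mice of the same Mrtf-mutant genotype. The comparison set 6 libraries named TKO against 6 named DKO, 12 of the 24 libraries of the series, over all genes. The members were taken by the library names, and results are also given without DKO 1, which stands apart from the other DKO libraries. Both groups came from mice with the genotype Mrtfa-/- (spelled Mrfta-/- in the labels), Mrtfb F/F and Rosa-Cas9/Cas9, that is, mice lacking Mrtfa, with floxed Mrtfb and with the Cas9 nuclease in the Rosa locus. The DKO mice received AAV-Cre and the TKO mice AAV-Myocd-sgRNA, both by injection of an adeno-associated virus on postnatal day 1. Cardiomyocytes were isolated by Langendorff perfusion at 4 weeks and sorted by fluorescence. The groups Ctrl (AAV-Cre) and MKO (AAV-Myocd-sgRNA), with 6 libraries each, came from Rosa-Cas9/Cas9 mice with no Mrtf mutation in their label, and give the same virus contrast in those cells. The labels do not say which promoter drove Cre, whether the guide virus also carried Cre, or whether each library is a separate animal. The p-values therefore measure only the spread between these libraries, which may be technical.

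Myocardin, the product of Myocd, and its relatives Mrtfa and Mrtfb are coactivators that bind serum response factor (SRF). SRF recognises a DNA element called the CArG box, and through it the coactivators drive cytoskeletal actin genes and genes of the contractile apparatus. In heart muscle, genes of the fetal programme, such as those of the natriuretic peptides and skeletal actin, are known to return under load or injury.

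Total counts lay between 5.83 and 12.16 M in DKO and between 10.21 and 17.18 M in TKO. DKO 1 was the shallowest library. It differed at least 2-fold from the rest of its group for 2816 genes, against 50 to 348 genes for each of the other 11 libraries. By sex-linked transcripts, DKO 1 was the single male library of its group, and the TKO group held 3 male libraries. The sorted cells carried the markers of ventricular cardiomyocytes: the summed level of 15 such genes had a median of 156606 CPM (read counts scaled to a common library size) in DKO (139535 to 164705) and 129956 CPM in TKO (122637 to 155843). The summed level of 15 endothelial markers was 1744 to 2495 CPM in DKO and 1736 to 2871 CPM in TKO, and that of 12 fibroblast markers 290 to 789 and 441 to 747 CPM. Leukocyte markers, 11 genes in the table, summed to 8.8 to 14.4 CPM in DKO and 11.2 to 16.9 CPM in TKO. The sum of 12 smooth muscle and pericyte markers was 860 to 1358 CPM in DKO and 959 to 1114 CPM in TKO. Sums weigh the genes of highest level most. By gene, the median log2 ratio of TKO to DKO was -0.689 for endothelial (1 of 15 tested above 0), -0.565 for fibroblast (2 of 11) and -0.595 for smooth muscle and pericyte markers (2 of 11). For leukocyte markers it was 0.059 (4 of 6). Between MKO and Ctrl the medians of these 4 lists were 0.526, 0.774, 0.602 and 1.056. The part of these levels in the results below was not tested. In such bulk samples fewer cells of a type and less RNA per cell cannot be told apart.

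The promoters of 4 genes whose levels are given below show the CArG box, the element through which the targeted coactivators act. They are Srf and Myl3, which were lower in TKO, and Acta1 and Fhl1, which were higher. The CArG boxes are in capitals, found on either strand, and only bases before the annotated start are printed, 5′ to 3′ on the strand of the gene (RefSeq, GRCm38.p6).
Srf, chr17:46556180-46556269, minus strand: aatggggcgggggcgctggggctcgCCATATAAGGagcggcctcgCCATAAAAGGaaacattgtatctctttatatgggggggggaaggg
Myl3, chr9:110763568-110763637, plus strand: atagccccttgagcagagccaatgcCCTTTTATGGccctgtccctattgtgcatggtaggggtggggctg
Acta1, chr8:123894804-123894873, minus strand: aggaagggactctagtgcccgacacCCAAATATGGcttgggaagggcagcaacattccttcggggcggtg
Fhl1, chrX:56779556-56779625, plus strand: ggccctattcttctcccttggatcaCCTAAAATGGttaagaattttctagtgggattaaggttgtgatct
The Srf promoter held 2 boxes, whose first bases lay 82 and 62 bases before the start. The single boxes began 85 bases before the start in Myl3, 73 in Acta1 and 102 in Fhl1. For Fhl1 the RefSeq start lies inside the span that the count table gives the gene (chromosome X, 56731787 to 56793346), so the stretch does not lie before the first base of that span. These 4 promoters were picked by hand from both directions among genes with a box, so they do not show how boxes divide between directions. Within 250 bases, a box stood in 4.65% of the promoters of lower genes and 1.52% of those of higher genes. The share over all tested genes with a promoter was 1.41%.

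Of the targeted genes, Myocd itself (chromosome 11, 65176571 to 65269989, mm10) was not called between the groups. Its level was 175 to 242 CPM in DKO, with a median of 206, and 175 to 323 CPM in TKO, with a median of 230. The groups overlapped, and the log2 ratio of TKO to DKO was 0.23 ± 0.13 (standard error). The adjusted p was 0.298 in edgeR, a count model fitted to all genes, with p-values corrected for the number of genes tested. Read counts over a gene do not show whether its sequence was edited, so the level of Myocd checks neither the guide nor the label.

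Under the older symbol Mkl1, Mrtfa (chromosome 15, 81012281 to 81190757), lay at 1.40 to 2.77 CPM in DKO and 1.33 to 2.66 CPM in TKO. Mrtfb, listed as Mkl2 (chromosome 16, 13256481 to 13417529), lay at 26.6 to 39.3 CPM in DKO and 27.5 to 42.5 CPM in TKO. Neither was called between the groups (log2 ratio 0.06 ± 0.22 for Mkl1, adjusted p = 0.895, and 0.10 ± 0.11 for Mkl2, adjusted p = 0.58, edgeR). Reads of Mkl2 were present in both groups, below the 44.8 to 55.9 CPM of Ctrl.

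Srf (chromosome 17, 46546839 to 46556162), the DNA-binding partner, fell. In DKO it ranged from 52.0 to 105 CPM with a median of 59.7, and in TKO from 38.3 to 50.9 CPM with a median of 42.4. All 6 TKO libraries lay below all 6 DKO libraries, the highest of which was DKO 1. The log2 ratio was -0.61 ± 0.14 (edgeR, adjusted p = 0.0115), and -0.42 without DKO 1 (adjusted p = 0.0181). Srf was called in 33 of 34 alternative fits, which are described below. Of the 34 fits, 24 left out 1 library and so shared most of their data, and Srf was called in all 24.

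Over all genes, 784 of 12281 tested were called at an adjusted p under 0.05, 6.38%. The fit took in all 24 libraries, which share one estimate of the spread, and the same test on the DKO and TKO libraries alone called 269 genes, 216 higher and 53 lower. Of the 784 genes, 511 were higher in TKO (4.16%) and 273 lower (2.22%). The change was at least 2-fold for 168 genes, 117 higher and 51 lower, and the median size over the called genes was 0.609 on the log2 scale. For 357 called genes the 6 TKO and 6 DKO libraries did not overlap, 265 higher and 92 lower, against 2.55% and 0.977% of all tested genes that did not overlap in those directions. Without DKO 1, 1100 of 12366 genes were called (8.9%), 748 higher (6.05%) and 352 lower (2.85%), and 689 of the 784 were among them. DKO 1 was the highest DKO library for 191 of the 273 lower genes and the lowest for 280 of the 511 higher genes. Over all 12281 tested genes it was the highest for 4556 and the lowest for 5216. Of the lower genes 199 were called without it, and of the 511 higher genes 490. TKO 4 was the highest TKO library for 238 of the 511 higher genes and for 2751 of all 12281 tested genes. Without TKO 4, 495 genes were called.

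**Figure D1:**
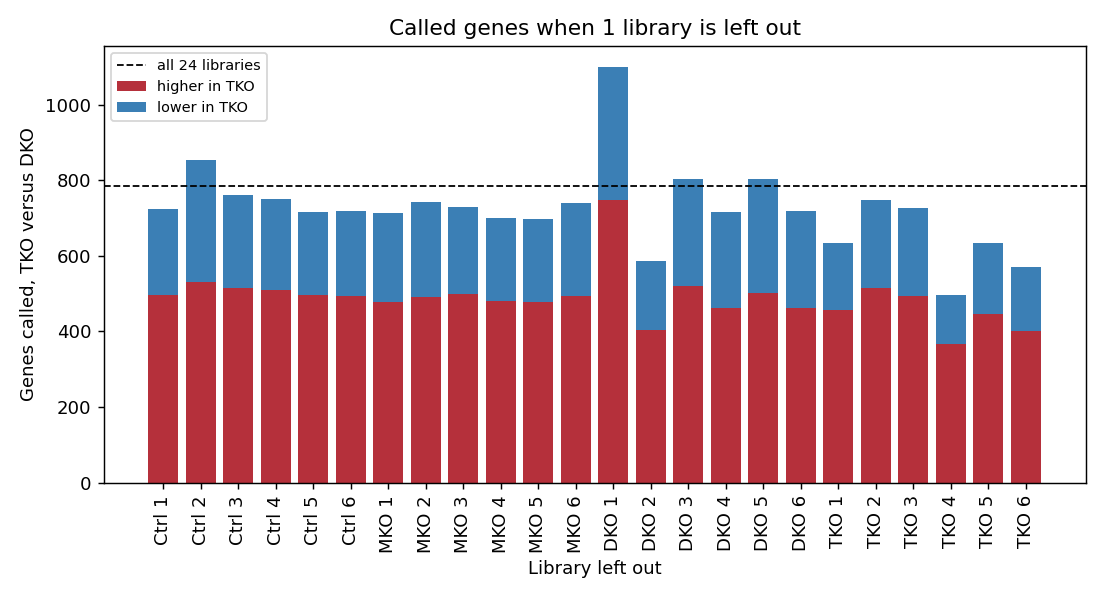
Number of genes called between TKO and DKO (vertical axis) when the library on the horizontal axis was left out, split into genes higher and lower in TKO, with the count from all 24 libraries as a dashed line. The counts ran from 495 without TKO 4 to 1100 without DKO 1.

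The 15 largest rises, among genes with a mean of at least 10 CPM in the higher group, ran from 1.81 to 3.40 on the log2 scale. They included cardiac stress genes (Nppa, Nppb, Acta1), signalling genes (Gnao1, Ptk2b, Gipr, Lrp8), the transcription factor Etv5, the potassium channel subunit Kcne5 (listed as Kcne1l) and others (Krt80, Nlrc3, Gcnt1, Slit3, Ankrd45). All 15 were also called without DKO 1, and for 8 of them the groups did not overlap. The 15 largest falls were smaller, from -2.39 to -1.03, and 12 of the 15 were also called without DKO 1. They held the carboxylesterase Ces1d, muscle creatine kinase (Ckm), the kinases Pim1, Wnk2 and Stk11, the ephrin receptor Epha4 and the peptide hormone apelin (Apln), and for 9 of them the groups did not overlap.

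Gnao1 (chromosome 8, 93810838 to 93969388) codes for the alpha subunit of the G protein Go. It was measured at 15.2, 11.7, 18.3, 17.6, 12.8 and 9.45 CPM in DKO 1 to 6 and at 56.9, 51.5, 55.8, 72.8, 38.3 and 40.3 CPM in TKO 1 to 6. The lowest TKO library was above the highest DKO library. The log2 ratio was 1.89 ± 0.16 (edgeR, adjusted p = 7.44e-08). Etv5 (chromosome 16, 22381313 to 22439570), an ETS factor of the PEA3 group, rose alike, from 20.9 to 34.2 CPM in DKO to 80.8 to 164 CPM in TKO (log2 ratio 1.81 ± 0.16, adjusted p = 7.44e-08). Again no TKO library came within the DKO range.

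Masp1 (chromosome 16, 23451785 to 23520590), a serine protease gene of the lectin complement pathway, had the smallest adjusted p of the comparison and is named here after its value was seen. It ranged from 12.98 to 19.6 CPM in DKO and from 42.5 to 57.1 CPM in TKO, without overlap. Its log2 ratio was 1.60 ± 0.12 (edgeR, adjusted p = 1.43e-08).

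Ankrd45 rose from 1.80 to 3.75 CPM in DKO to 8.19 to 14.3 CPM in TKO (log2 ratio 1.92 ± 0.19, adjusted p = 6.98e-07). Gipr, the receptor for the gut hormone GIP, rose from 2.85 to 5.08 CPM to 10.1 to 19.2 CPM (1.90 ± 0.26, adjusted p = 5.03e-05). Krt80, a keratin, rose from 0.337 to 2.20 CPM to 3.66 to 32.4 CPM (3.19 ± 0.46, adjusted p = 0.000102). None of these 3 genes overlapped between the groups. Slit3, a guidance ligand, and Gcnt1, a glycosyltransferase, did not overlap either, at 8.80 to 36.5 CPM in TKO against 3.53 to 7.67 CPM in DKO for Slit3 and at 10.4 to 27.5 against 1.20 to 6.10 CPM for Gcnt1. Ptk2b, a calcium-dependent tyrosine kinase, overlapped through DKO 1 alone (15.98 CPM), the other DKO libraries lying at 4.57 to 6.51 CPM and the TKO libraries at 14.8 to 55.2 CPM (1.90 ± 0.31, adjusted p = 0.000326).

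For 7 of the 15 rises, among them Kcne1l, Nppa, Lrp8, Acta1, Nlrc3 and Nppb, the 3 highest TKO libraries were TKO 2, 3 and 4, a pattern noticed in the data that held for 50 of the 511 higher genes and 732 of all 12281 tested genes. Nppa (chromosome 4, 148000746 to 148002067), the atrial natriuretic peptide gene, stood at 512, 11.04, 33.5, 269, 83.9 and 103 CPM in DKO 1 to 6. In TKO 1 to 6 it stood at 329, 1375, 2540, 3924, 109 and 484 CPM. The groups overlapped in TKO 1, 5 and 6. The log2 ratio was 3.12 ± 0.79 (edgeR, adjusted p = 0.0168), 3.87 without DKO 1 (adjusted p = 0.00354), and the call was lost without TKO 4 (adjusted p = 0.0586). Nppb, the B-type peptide gene next to it, ranged from 19.1 to 56.2 CPM in DKO and from 36.7 to 258 CPM in TKO (1.82 ± 0.46, adjusted p = 0.0176), and lost its call without TKO 3 (adjusted p = 0.0528). Kcne1l ranged from 0.599 to 2.87 CPM in DKO and from 2.52 to 32.1 CPM in TKO (3.40 ± 0.42, adjusted p = 1.45e-05), and Lrp8, a receptor for reelin, from 0.843 to 3.87 and from 2.44 to 34.98 CPM (3.06 ± 0.51, adjusted p = 0.000482). For Nppb, Kcne1l and Lrp8 the groups overlapped too.

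Among the falls, Ces1d, for which reads may be shared with near-identical neighbouring genes, dropped furthest. It was at 13.1 to 47.7 CPM in DKO and 2.52 to 10.8 CPM in TKO, without overlap (log2 ratio -2.39 ± 0.39, edgeR, adjusted p = 0.000415). Ckm (chromosome 7, 19411094 to 19421583) stood at 4160, 2533, 2400, 2281, 2099 and 2101 CPM in DKO 1 to 6 and at 1001, 1785, 1997, 893, 738 and 1020 CPM in TKO 1 to 6. DKO 1 was far above the others, and the 6 TKO libraries lay below all DKO libraries. The log2 ratio of Ckm was -1.07 ± 0.20 (adjusted p = 0.00152), and -0.88 without DKO 1 (adjusted p = 0.00271). Ccdc69 fell from 26.2 to 38.8 CPM to 7.13 to 21.6 CPM (-1.18 ± 0.21, adjusted p = 0.000821). Asb14, a ubiquitin ligase adaptor, fell from 97.2 to 146 CPM to 31.9 to 66.2 CPM (-1.03 ± 0.14, adjusted p = 4.61e-05). Gas1, a membrane protein gene of growth arrest, fell from 19.2 to 34.5 CPM to 9.62 to 13.2 CPM (-1.03 ± 0.16, adjusted p = 0.000186), and Wnk2 from 28.8 to 63.9 CPM to 13.5 to 26.7 CPM (-1.07 ± 0.21, adjusted p = 0.00256). None of these 4 genes overlapped between the groups.

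Other large falls rested partly on DKO 1. Pim1 was at 43.1 CPM in DKO 1, 8.49 to 15.3 CPM in the other DKO libraries and 4.93 to 8.34 CPM in TKO (log2 ratio -1.31 ± 0.32, edgeR, adjusted p = 0.014). Without DKO 1 its log2 ratio was -0.80 (adjusted p = 0.0276). Cmtm8 was at 40.5 CPM in DKO 1, 7.51 to 12.8 CPM in the other DKO libraries and 5.22 to 7.41 CPM in TKO (-1.23 ± 0.31, adjusted p = 0.017), and its log2 ratio was -0.67 without DKO 1 (adjusted p = 0.0244). Both calls held without that library at a smaller size, and each was lost in 1 of 34 alternative fits (33 called). Art5 behaved alike, at 36.4 CPM in DKO 1, 14.2 to 21.5 CPM in DKO 2 to 6 and 3.47 to 13.2 CPM in TKO (-1.15 ± 0.27, adjusted p = 0.00992). Epha4 overlapped in 1 library a side (8.61 to 16.6 CPM in DKO, 3.47 to 9.15 CPM in TKO, -1.08 ± 0.21, adjusted p = 0.00255).

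The calls of 5 of the 15 falls were less stable. Stk11, coding for the kinase LKB1, was at 117 CPM in DKO 1 and at 9.61 to 47.5 CPM in the other DKO libraries, against 10.9 to 16.2 CPM in TKO (log2 ratio -1.40 ± 0.41, edgeR, adjusted p = 0.04). Without DKO 1 its log2 ratio was -0.61 (adjusted p = 0.161), and with the replicate number as a block the adjusted p was 0.112. The call of Stk11 was also lost without DKO 6 or any 1 of TKO 1 to 6 (adjusted p of 0.0546 and above). Ybx3, a cold-shock domain factor listed as Csda, had a log2 ratio of -1.35 ± 0.37 (adjusted p = 0.0257) and lost its call without DKO 1 (log2 ratio -0.90) or any 1 of TKO 2 to 5 (adjusted p from 0.0519 to 0.0735). Apold1, an endothelial gene, had -1.35 ± 0.39 (adjusted p = 0.0362) and lost its call without DKO 1, 5 or 6 or any 1 of TKO 2 to 6 (adjusted p from 0.0528 to 0.0821). Nrarp, a feedback gene of Notch signalling, had -1.26 ± 0.35 (adjusted p = 0.0317) and lost its call without DKO 2, 5 or 6 or any 1 of TKO 3 to 6 (0.0512 to 0.0753). Apln, known from endothelial cells, had -1.03 ± 0.31 (adjusted p = 0.0436) and lost its call without Ctrl 1, MKO 1, DKO 2, 3, 4 or 6 or TKO 1, 3, 4, 5 or 6 (0.05 to 0.103). The 15 endothelial markers lay at -0.689 in the median on the log2 scale. None of them was called by edgeR and 1 was called by DESeq2. An unadjusted p under 0.05 was found for 2, beside 2882 of all 12281 tested genes. The part of these markers in the values of Apold1, Nrarp and Apln was not tested.

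Gene groups were described by lists, 34 in all, with 821 of their genes tested. The lists were chosen with earlier results of these data known, so their counts are descriptions and no independent support. Over all tested genes the median log2 ratio was -0.039, and -0.004 without DKO 1. Of all tested genes 4.16% were called higher and 2.22% lower, 6.38% in either direction. Without DKO 1, 6.05% were called higher and 2.85% lower. List counts are to be read beside these shares, and a percentage called counts both directions. Of 31 tested genes of the fetal and stress programme, 11 rose and 0 fell (35.5% called), with a median of 0.559. Without DKO 1, 11 rose as well. The 11 were Nppa, Nppb, Myh7, Acta1, Ankrd1, Xirp2, Fhl1, Rcan1, Cacna1g, Edn3 and Cd44.

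Rcan1 (chromosome 16, 92391953 to 92466146), a calcineurin regulator and target, stood at 206, 175, 225, 195, 191 and 212 CPM in DKO 1 to 6. In TKO 1 to 6 it stood at 435, 401, 594, 366, 336 and 551 CPM. The groups were well apart (log2 ratio 1.16 ± 0.13, edgeR, adjusted p = 3.27e-06). Cd44, a hyaluronan receptor, rose from 34.5 to 63.7 CPM to 78.6 to 168 CPM (1.44 ± 0.16, adjusted p = 3.27e-06), and Cacna1g, a T-type calcium channel of the immature heart, from 52.6 to 72.9 CPM to 84.6 to 136 CPM (0.87 ± 0.12, adjusted p = 4.33e-05). Neither overlapped between the groups. Ankrd1, a stretch-responsive ankyrin protein named here after its value was seen, rose from 572 to 891 CPM to 972 to 3454 CPM (1.49 ± 0.25, adjusted p = 0.000452).

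**Figure D2:**
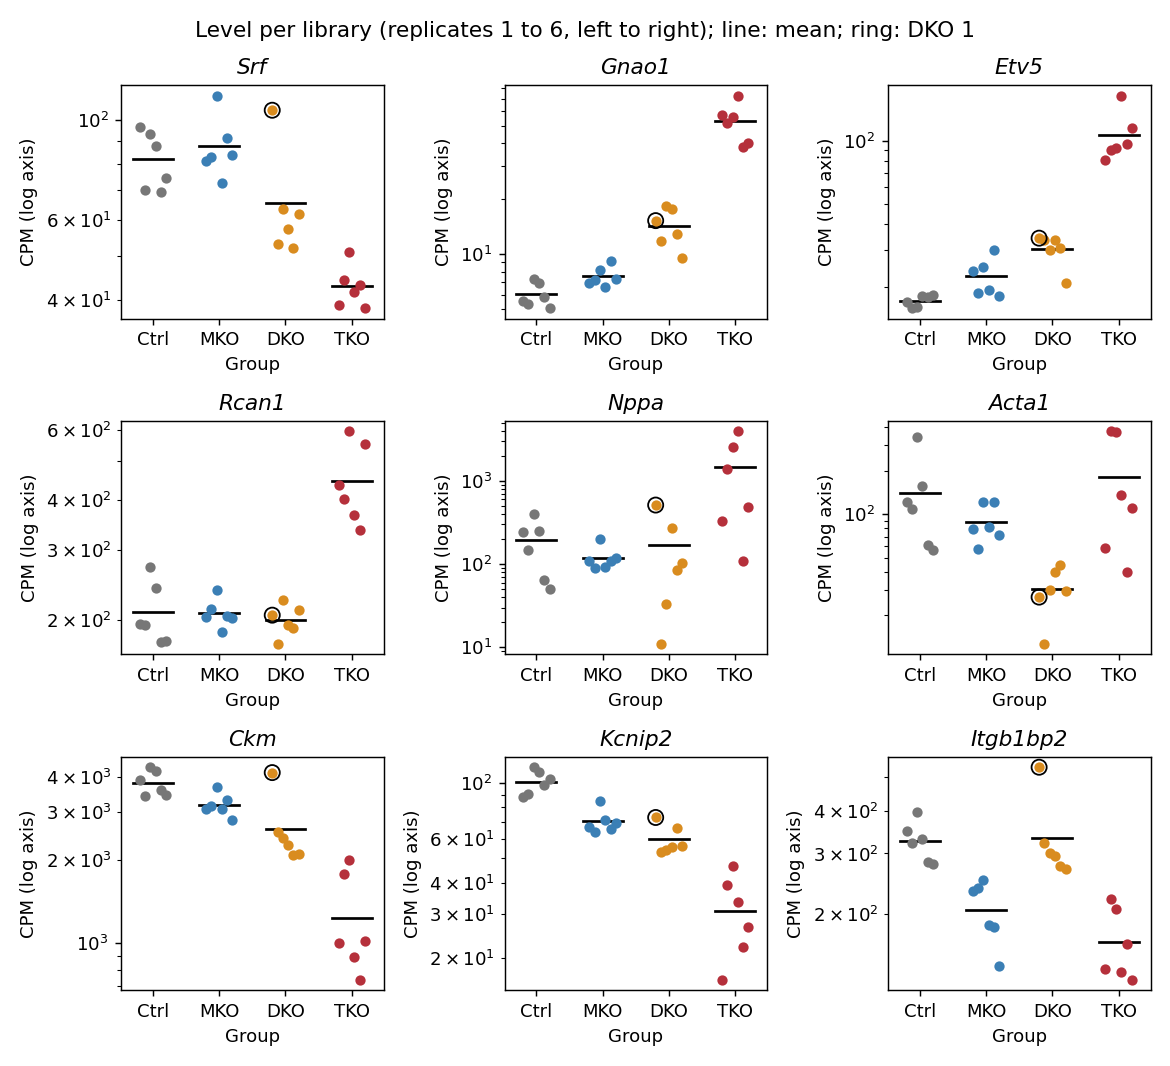
CPM on a log axis of 9 genes in each of the 24 libraries by group, replicates 1 to 6 from left to right, with a line at the group mean and a ring around DKO 1. Gnao1, Etv5 and Rcan1 were higher in all 6 TKO libraries than in any DKO library, Nppa and Acta1 overlapped between DKO and TKO, and Srf, Ckm, Kcnip2 and Itgb1bp2 were lower in all 6 TKO libraries.

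Cytoskeletal genes known as targets of SRF and the Mrtf coactivators moved in both directions. Of 47 tested, 7 rose and 2 fell (19.1% called, beside 6.38% over all tested genes), with a median of -0.016. Without DKO 1, 9 rose and 1 fell, with a median of -0.038. The 7 were Acta1, Flnc, Zyx, Fhl1, Msn, Ezr and Arpc5, and the 2 were Srf and Tpm1. The count of 2 was 4 without TKO 2 and 1 without any other single library except Ctrl 2, MKO 6, DKO 5, DKO 6 and TKO 3.

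Acta1 (chromosome 8, 123891767 to 123894736), the skeletal muscle actin, rose. It stood at 26.8, 12.7, 29.8, 39.7, 44.9 and 29.7 CPM in DKO 1 to 6 and at 58.9, 375, 371, 136, 39.6 and 110 CPM in TKO 1 to 6. Only TKO 5 lay within the DKO range, and the log2 ratio was 2.57 ± 0.50 (edgeR, adjusted p = 0.00196). The other 4 actins that were tested had log2 ratios below 0 that did not pass the test: -0.60 ± 0.19 for the cardiac Actc1 (adjusted p = 0.0567), -0.59 ± 0.26 for the smooth muscle Acta2 (adjusted p = 0.163), -0.58 for Actb (adjusted p = 0.226) and -0.53 for Actg1 (adjusted p = 0.3). Actins share near-identical stretches, so the split of reads between them is uncertain.

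Fhl1, a LIM protein of the sarcomere, rose from 91.3 to 139 CPM to 184 to 344 CPM (log2 ratio 1.13 ± 0.15, edgeR, adjusted p = 2.24e-05). Zyx, the focal adhesion protein zyxin, rose from 76.4 to 132 CPM to 164 to 230 CPM (0.91 ± 0.15, adjusted p = 0.000492). Ezr, which links actin to the membrane, rose from 202 to 278 CPM to 303 to 398 CPM (0.55 ± 0.10, adjusted p = 0.000749). In none of these 3 did the groups overlap.

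Tested were 41 genes of the costamere and intercalated disc, the structures that anchor muscle cells to matrix and to each other. Of these 12 rose and 1 fell (31.7% called), with a median of 0.255, and 13 rose and 1 fell without DKO 1. They included Parva, Dtna, Cdh2, Dsp, Pkp2, Ctnna1, Ctnna3, Xirp2, Sorbs2, Lmo7 and Ank3. Sorbs2, an adaptor of the disc, stood at 304 to 648 CPM in DKO and 868 to 1150 CPM in TKO (log2 ratio 0.90 ± 0.14, edgeR, adjusted p = 0.00016). Lmo7 stood at 453 to 903 CPM in DKO and 979 to 1368 CPM in TKO (0.59 ± 0.12, adjusted p = 0.00329). Itgb1bp2 (melusin), a mechanosensing partner of beta-1 integrin, was the member that fell, from 270 to 534 CPM to 129 to 222 CPM (-1.003 ± 0.17, adjusted p = 0.000676), and without Ctrl 2 the count of falls was 2. All 3 were without overlap.

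Of 48 tested genes of the sarcomere and Z-disc, 9 rose and 5 fell (29.2% called), with a median of 0. Without DKO 1, 11 rose and 2 fell, with a median of 0.083. The 9 were Myh7, Mylk3, Acta1, Actn2, Mybpc3, Lmod2, Fhod3, Synpo2l and Flnc, and the count of rises was 5 without TKO 3. The 5 were Myl3, Tnnc1, Tpm1, Tmod4 and Trim55, and the count of falls was 1 without TKO 4 or TKO 5, 2 without TKO 6 and 3 without DKO 2, DKO 3 or TKO 1. Mybpc3, cardiac myosin-binding protein C, rose from 5590 to 8761 CPM to 9291 to 12170 CPM (log2 ratio 0.48 ± 0.11, edgeR, adjusted p = 0.00727). Synpo2l, a Z-disc protein, rose from 186 to 321 CPM to 354 to 447 CPM (0.61 ± 0.12, adjusted p = 0.00256), and Mylk3, the cardiac myosin light chain kinase, from 1053 to 1164 CPM to 1269 to 1823 CPM (0.44 ± 0.10, adjusted p = 0.00602). None of these rises overlapped. Mybpc3 and Mylk3 were each called in 33 of 34 alternative fits, and Synpo2l in all 34.

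Myl3, the ventricular essential light chain, stood at 15220 CPM in DKO 1, 5499 to 6563 CPM in DKO 2 to 6 and 3230 to 5836 CPM in TKO. It fell by 0.84 ± 0.19 on the log2 scale (edgeR, adjusted p = 0.00785), and its log2 ratio was -0.52 without DKO 1 (adjusted p = 0.00429). Myl3 was called in 33 of 34 alternative fits. Tnnc1, cardiac troponin C, stood at 3697 CPM in DKO 1, 1841 to 2202 CPM in DKO 2 to 6 and 776 to 2159 CPM in TKO (-0.73 ± 0.20, adjusted p = 0.0254). Its call was lost without DKO 1 (adjusted p = 0.0545) and without TKO 4, 5 or 6 (adjusted p up to 0.07).

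Among 42 tested ion channel and pump genes 4 rose and 4 fell (19% called), with a median of -0.071. Without DKO 1 the counts were 5 and 4. Kcne1l, Kcnj12, Cacna1c and Cacna1g rose. The potassium channel genes Kcnd2 and Kcnip2 and the pacemaker channel gene Hcn2 were among the 4 that fell, and the count of falls was 2 without DKO 2, TKO 3 or TKO 4. Kcnip2 (chromosome 19, 45793670 to 45815803), the auxiliary subunit of the transient outward current, stood at 72.9, 53.3, 54.1, 55.4, 66.2 and 56.3 CPM in DKO 1 to 6 and at 16.4, 39.0, 46.6, 33.4, 22.2 and 26.5 CPM in TKO 1 to 6. No library overlapped (log2 ratio -0.95 ± 0.17, edgeR, adjusted p = 0.000821). Hcn2 fell from 49.0 to 89.9 CPM to 24.6 to 45.7 CPM (-0.80 ± 0.15, adjusted p = 0.00121). Of 33 calcium handling genes 1 fell, Ppp1r1a, and 0 rose (3.03% called, beside 6.38% over all tested genes). The count of falls was 0 without TKO 4 and 2 without Ctrl 2, TKO 3 or TKO 5.

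Of 52 tested oxidative phosphorylation genes 5 fell and 0 rose (9.62% called), and 0 of the 52 had a log2 ratio above 0. Over all tested genes 5441 of 12281 were above 0. So were 0 of 32 mitochondrial ribosomal, 4 of 31 proteasome and 11 of 46 cytosolic ribosomal genes, but 33 of 41 costamere and disc genes. The oxidative phosphorylation genes had a median of -0.391. Without DKO 1 it was -0.125 and 2 fell, and the mitochondrial ribosomal, proteasome and cytosolic ribosomal medians were -0.092, 0.047 and 0.114. The count of 5 (among them Ndufa10, Ndufv1, Sdha and Uqcrfs1) was 0 without TKO 1 or TKO 4, 2 without DKO 2, TKO 5 or TKO 6, 9 without DKO 6, and 3 when TKO 2, any MKO library or any Ctrl library other than Ctrl 2 was left out. Ndufv1, a subunit of complex I, stood at 2967 CPM in DKO 1, 1412 to 1744 CPM in DKO 2 to 6 and 1142 to 1459 CPM in TKO (log2 ratio -0.50 ± 0.13, edgeR, adjusted p = 0.0237). Without DKO 1 the log2 ratio of Ndufv1 was -0.30 (adjusted p = 0.0265), and its call was lost without TKO 1 or TKO 4 (adjusted p = 0.0559 and 0.0532).

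Of 42 genes of fatty acid uptake and oxidation 4 fell and 1 rose (11.9% called), with a median of -0.225. Without DKO 1, 2 fell and 1 rose, with a median of -0.14. The count of 4 (Acadvl, Hadhb, Etfdh and Mlycd) was 2 without DKO 2 or TKO 5, 1 without TKO 1 or TKO 4, and 8 without DKO 5. Mlycd, malonyl-CoA decarboxylase, fell from 230 to 412 CPM to 169 to 217 CPM without overlap (log2 ratio -0.51 ± 0.12, edgeR, adjusted p = 0.00992). Cpt1a, the liver form of carnitine palmitoyltransferase 1, rose (0.55 ± 0.15, adjusted p = 0.0253), and lost its call without TKO 1, 4 or 6 (0.0552 to 0.0821).

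Of 29 glycolysis genes 4 rose (Pfkl, Pfkp, Pgam1 and Slc16a3) and 2 fell (Eno3 and Pdk2), 20.7% called. Without DKO 1 the counts were 5 and 0. The count of 2 was 0 or 1 when any library other than Ctrl 2, MKO 2, DKO 4, DKO 5 or DKO 6 was left out. Pfkp, the platelet form of phosphofructokinase, stood at 183 to 256 CPM in DKO and 309 to 409 CPM in TKO (log2 ratio 0.59 ± 0.09, edgeR, adjusted p = 0.00034). Slc16a3, the lactate exporter MCT4, stood at 0.896 to 3.75 CPM in DKO and 4.53 to 6.92 CPM in TKO (1.41 ± 0.26, adjusted p = 0.00121). Both were without overlap. Of 25 metabolic regulators and creatine genes 3 fell (Ckm, Rxrg and Ppargc1b) and 0 rose, 12% called. Rxrg, a retinoid X receptor, fell from 71.4 to 133 CPM to 36.6 to 65.6 CPM (-0.82 ± 0.15, adjusted p = 0.00141).

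Etv5 was 1 of 4 rises among 20 tested genes of the PEA3 factors and of ERK feedback, with 0 falls (20% called). The median was -0.003 (0.079 without DKO 1). The others were the growth factor receptor Fgfr1 (11.2 to 18.2 CPM in DKO, 22.5 to 51.2 in TKO, log2 ratio 1.04 ± 0.16, edgeR, adjusted p = 0.000276), the feedback inhibitor Spry4 (6.59 to 20.4 and 21.8 to 48.9 CPM, 1.05 ± 0.24, adjusted p = 0.00947) and the phosphatase Dusp4. Fgfr1 and Spry4 did not overlap. Dusp4 was at most 0.994 CPM in DKO and at 16.8 CPM in TKO 4, with 0.436 to 2.44 CPM in the other TKO libraries, and its call was lost without TKO 4 (adjusted p = 0.106). Of 21 immediate early genes 0 were called by edgeR, and 1 was called lower by DESeq2. An unadjusted p under 0.05 was found for 7 of them, beside 2882 of all 12281 tested genes.

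Gnao1 was 1 of 4 rises among 30 tested genes of adrenergic and G protein signalling, with 1 fall (Adcy5), 16.7% called. The median was -0.018 (0.039 without DKO 1). Grk5, a receptor kinase, rose from 10.8 to 20.2 CPM to 21.8 to 29.6 CPM (log2 ratio 0.80 ± 0.16, edgeR, adjusted p = 0.00211). Adcy6, an adenylyl cyclase, rose from 106 to 152 CPM to 174 to 217 CPM (0.53 ± 0.09, adjusted p = 0.000856), and neither of these overlapped. Prkar1a, a regulatory subunit of protein kinase A, rose by 0.56 ± 0.11 (adjusted p = 0.00314). The fall of Adcy5 was lost without DKO 2, DKO 5, TKO 3 or TKO 5, and without DKO 1 or DKO 4 the count of falls was 2.

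Of 29 tested lysosome and autophagy genes 6 rose and 0 fell (20.7% called, median 0.114), and 13 rose without DKO 1 (median 0.202). They included Lamp2, Atp6v1a, Atp6v1h, Gabarapl1 and Atg7. Gabarapl1, of the autophagosome, stood at 36.9 to 48.6 CPM in DKO and 56.4 to 76.1 CPM in TKO (log2 ratio 0.65 ± 0.09, edgeR, adjusted p = 7.33e-05). Atp6v1h, a subunit of the proton pump, stood at 34.4 to 52.8 CPM in DKO and 58.6 to 75.9 CPM in TKO (0.54 ± 0.09, adjusted p = 0.000692). Neither overlapped. By edgeR 0 of 31 proteasome genes, 0 of 46 cytosolic ribosomal protein genes and 0 of 32 cell cycle genes were called. Over all tested genes 6.38% were called. At an unadjusted p under 0.05 there were 2, 1 and 5 genes, beside 2882 of all 12281 tested genes. DESeq2 called 0, 0 and 1. Among p53 response genes 3 of 26 rose (Eda2r, Gdf15 and Xpc), and among integrated stress response genes 2 of 26 (Psat1 and Gdf15). Among oxidative stress genes 2 of 21 rose (Nfe2l2 and Hmox1), and each of these lists had 0 falls. The shares were 11.5%, 7.69% and 9.52%, beside 4.16% called higher over all tested genes. Gdf15 counts in both the p53 and the integrated stress lists. The call of Eda2r was lost in 13 of the 24 fits that left out 1 library. The count of the oxidative stress genes was 4 without DKO 1 and 1 without DKO 4, DKO 5, TKO 4 or TKO 6.

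Of 44 tested matrix and remodelling genes 4 rose (Lama5, Mmp23, Tgfb2 and Tgfb3) and 1 fell (Timp2), 11.4% called. The median was -0.202, and -0.374 without DKO 1. Tgfb2 (chromosome 1, 186623186 to 186705992), a TGF-beta ligand, stood at 12.6 to 18.2 CPM in DKO with a median of 16.4. In TKO it stood at 28.9 to 49.9 CPM with a median of 37. The groups did not overlap (log2 ratio 1.28 ± 0.14, edgeR, adjusted p = 3.77e-06). Mmp23, a metalloproteinase, rose from 2.36 to 5.52 CPM to 9.15 to 18.02 CPM (1.62 ± 0.24, adjusted p = 0.000127), and Lama5, a laminin chain, from 73.5 to 123 CPM to 145 to 204 CPM (0.79 ± 0.14, adjusted p = 0.000835). The fall of Timp2 was lost without DKO 2, 4 or 6 or TKO 1, 2, 3 or 6, and without DKO 1 the count of falls was 3.

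The markers of atrial cells were read beside Nppa, since it is 1 of them. Of 10 tested, 2 rose (Nppa and Clu) and 0 fell (20% called), with a median of -0.612 over the list, and 1 rose without TKO 4. The summed level of the list was 340 to 1534 CPM in DKO and 737 to 6082 CPM in TKO. Clu, a secreted chaperone, stood at 908 CPM in DKO 1, 262 to 354 CPM in DKO 2 to 6 and 562 to 2099 CPM in TKO (log2 ratio 1.21 ± 0.29, edgeR, adjusted p = 0.0108). The called fibroblast marker was Fbln1 (57.0 to 151 CPM in DKO, 135 to 360 in TKO, 1.02 ± 0.23, adjusted p = 0.00663), while the median of the 11 fibroblast markers was -0.565. The called pericyte marker was Cspg4 (0.89 ± 0.20, adjusted p = 0.00606), while the median of that list was -0.595.

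**Figure D3:**
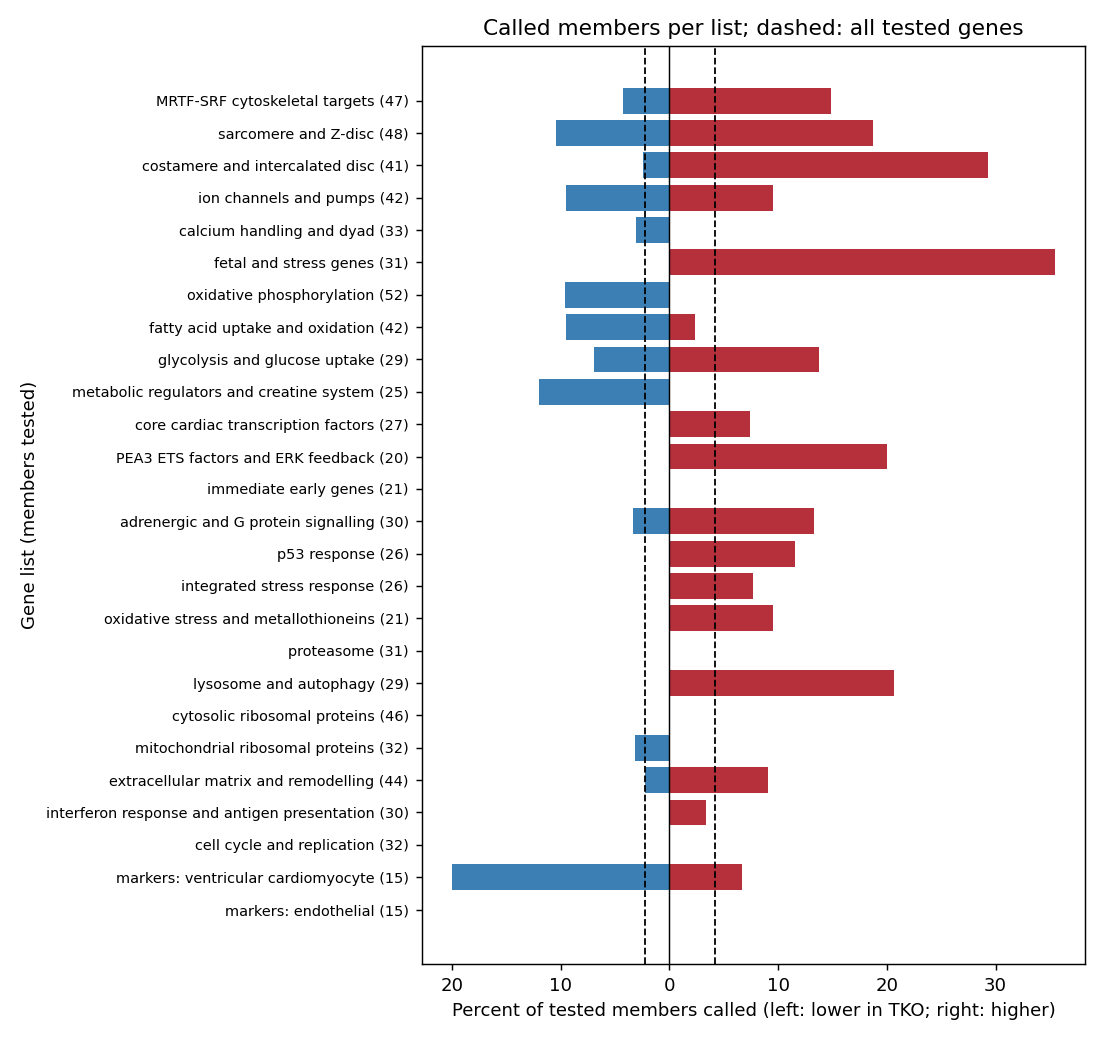
Percent of the tested members of each list of at least 15 tested genes that were called lower (left of 0) or higher (right of 0) in TKO than in DKO, with the number tested in brackets. Dashed lines mark 2.22% lower and 4.16% higher over all tested genes. The fetal and stress list stands furthest to the right, with 11 of 31 called. The immediate early, proteasome, cytosolic ribosomal protein, cell cycle and endothelial lists have no called gene. The lists were chosen with earlier results of these data known.

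The same virus contrast without the Mrtf mutations, MKO against Ctrl, gave 0 called genes of 12281 (0%), with a lowest adjusted p of 0.414 by edgeR and 762 genes at an unadjusted p under 0.05, against 2882 for TKO and DKO. These contrasts share no library. Of the 784 genes called between TKO and DKO, 607 had a log2 ratio of the same sign between MKO and Ctrl, 404 of the 511 higher and 203 of the 273 lower genes, against 7225 of all 12281. Over all tested genes the log2 ratios of the contrasts had a Pearson correlation of -0.021. The sizes differed: the higher genes had a median log2 ratio of 0.619 between TKO and DKO and 0.124 between MKO and Ctrl, and the lower genes -0.587 and -0.112. Since the called genes were chosen on the first value, the difference in size is a description.

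Whether the log2 ratio of TKO to DKO differed from that of MKO to Ctrl was tested as an interaction. It was called for 57 genes (0.464%), 49 upward (0.399%) and 8 downward (0.0651%), and 56 of the 57 were also called between TKO and DKO, 7.143% of that list. Without DKO 1 the count was 201 (1.63%), 136 upward and 65 downward. It was 585 without Ctrl 2, with 474 downward. It was 14 without DKO 2, 17 without MKO 1, 18 without MKO 2, 20 without DKO 6, 23 without Ctrl 3, 24 without Ctrl 4, 25 without TKO 4, 30 without TKO 6, 33 without MKO 5 and 34 without Ctrl 6 or TKO 3. The count therefore moved with single libraries of all 4 groups.

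Masp1, Ankrd45, Gnao1, Etv5, Rcan1, Tgfb2 and Fhl1 were called upward. The interaction was 1.41 ± 0.17 for Masp1 (edgeR, adjusted p = 0.000205), 2.001 ± 0.27 for Ankrd45 (0.000716), 1.56 ± 0.24 for Gnao1 (0.00161) and 1.42 ± 0.22 for Etv5 (0.00171). It was 1.16 ± 0.18 for Rcan1 (0.00171), 1.24 ± 0.21 for Tgfb2 (0.00392) and 1.10 ± 0.20 for Fhl1 (0.0134). Downward, Gas1 had -1.49 ± 0.22 (adjusted p = 0.00161). The means of Rcan1 were 209 CPM (Ctrl) and 208 CPM (MKO), and those of Gas1 were 21.8 CPM (Ctrl) and 30.1 CPM (MKO, log2 ratio 0.46 ± 0.15, adjusted p = 0.698). Apart from Masp1, which was not followed through the alternatives, these interactions were called whichever library was left out.

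Acta1 had an interaction of 3.23 ± 0.68 (edgeR, adjusted p = 0.0346), with mean CPM of 141 (Ctrl), 89.2 (MKO), 30.6 (DKO) and 182 (TKO), and the call was lost without Ctrl 3, Ctrl 4, MKO 1, MKO 2, DKO 2, DKO 6 or TKO 3 (adjusted p from 0.055 to 0.0699). Krt80 had 3.55 ± 0.73 (adjusted p = 0.031) and lost it without Ctrl 3, Ctrl 4, MKO 1, MKO 2 or DKO 2 (0.0531 to 0.0732). Gipr had 1.87 ± 0.38 (0.031) and lost it without Ctrl 3, DKO 2, DKO 6 or TKO 4 (0.0555 to 0.0572). The interactions of Egflam, Sorbs2, Cacna1g and Gabarapl1, called with all libraries, were each lost without 12 to 18 of the 24 libraries taken singly. Nppa had 3.82 ± 1.06 (adjusted p = 0.115) and Srf -0.70 ± 0.20 (adjusted p = 0.13), which did not pass the test.

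Some genes that fell between DKO and TKO had a log2 ratio below 0 in both contrasts. Ccdc69 had a log2 ratio of -1.18 ± 0.21 between TKO and DKO and -0.99 ± 0.21 between MKO and Ctrl, with an interaction of -0.19 ± 0.29 (edgeR, adjusted p = 0.847). Itgb1bp2 had -1.003 ± 0.17 and -0.67 ± 0.17, with an interaction of -0.34 ± 0.24 (adjusted p = 0.61). Kcnip2 had -0.95 ± 0.17 and -0.52 ± 0.16, with an interaction of -0.43 ± 0.23 (adjusted p = 0.466). A p that misses the threshold does not show that the contrasts were alike, and no single gene was called between MKO and Ctrl.

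**Figure D4:**
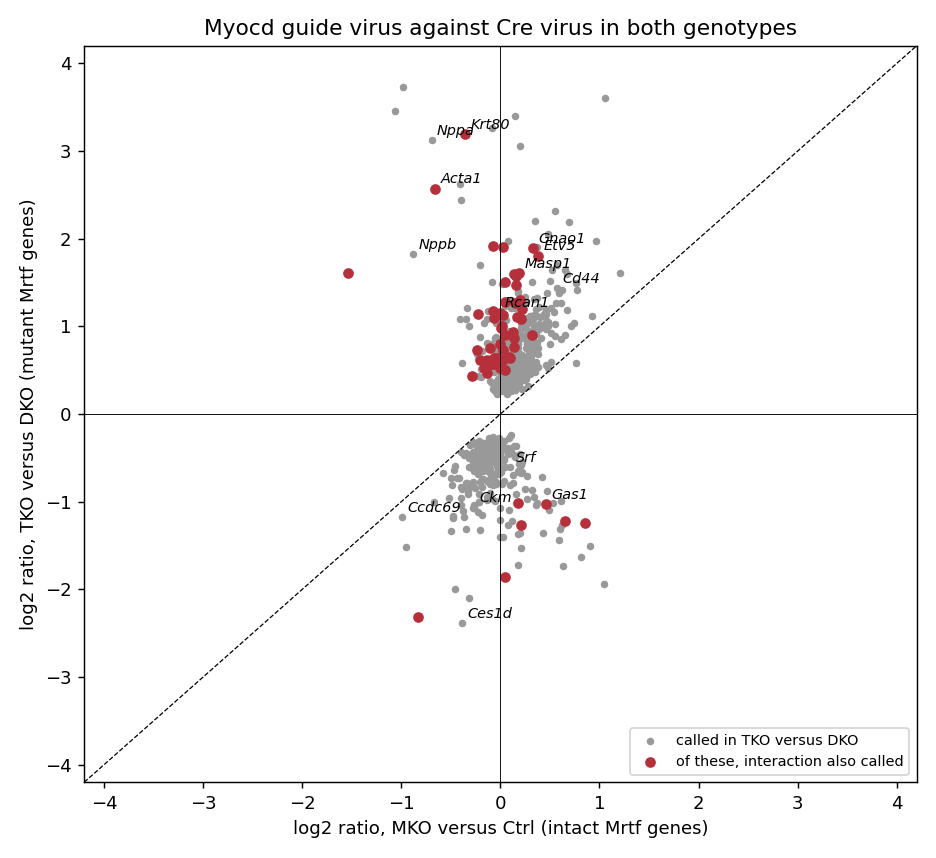
Log2 ratio of MKO to Ctrl (horizontal axis) against log2 ratio of TKO to DKO (vertical axis) for the 784 genes called between TKO and DKO, with those also called for the interaction in red and a dashed line where both are equal. Of the 784 points 607 have the same sign on both axes, and 56 are red.

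The genes around the guide target were read by position. Within 2 Mb of Myocd lie 24 genes of the table, of which 12 were tested and 3 called, 2 upward and 1 downward, beside 6.38% of all tested genes (4.16% higher, 2.22% lower). Gm12295, a predicted gene just beyond Myocd (chromosome 11, 65277654 to 65287833), rose from 9.96 to 18.8 CPM to 19.3 to 28.8 CPM (log2 ratio 0.88 ± 0.17, edgeR, adjusted p = 0.00158). Pirt, a regulator of TRP channels, rose by 0.63 ± 0.14 (adjusted p = 0.00643). Cox10, an assembly factor of cytochrome oxidase, had -0.52 ± 0.15 (adjusted p = 0.0415) and lost its call without DKO 1 (log2 ratio -0.29, adjusted p = 0.0739).

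Promoter motifs were counted in the 250 bases before the start, on both strands, for the 9783 of 12281 tested genes with a RefSeq promoter. A CArG box was found in 1.41% of them, in 6 of 396 genes called higher (1.52%) and in 10 of 215 called lower (4.65%), against 11 of 43 tested SRF and Mrtf target genes (25.6%). The 10 lower genes were Cited1, D4Bwg0951e, Myl3, Fbxl22, Rap1gap2, Srf, Rnf220, Hook2, Ppif and Trip10, and the 6 higher genes Arpc4, Filip1, Sema4d, Slc25a23, Fhl1 and Acta1. Without DKO 1, Cited1, Hook2 and Ppif lost their calls (edgeR, adjusted p = 0.0807, 0.0839 and 0.0726), and the 6 higher genes kept theirs. The TEAD motif GGAATG or its reverse complement CATTCC stood in 13% of all, 17.4% of higher and 13% of lower genes, and the AP-1 motif TGANTCA in 5.31%, 8.84% and 3.72%. A match is a description of the letters and no site, and these shares were not tested.

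The authors' deposited table of this comparison calls 1519 genes at an adjusted p under 0.05, 826 higher and 693 lower in TKO, and shares 683 with the 784. A DESeq2 fit of DKO 2 to 6 and TKO 1 to 6 gave the log2 fold changes of the deposited table within 0.001 for 100% of 17603 genes, so that table was made without DKO 1.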

How the data were processed

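Polyadenylated RNA of sorted cardiomyocytes was made into libraries with a SMART-Seq v4 kit and Nextera XT, per the labels' protocols. These kits keep no strand information, so reads of overlapping or antisense genes are mixed. The authors deposited whole-number read counts for 23337 genes in 24 libraries, and a table of this comparison with baseMean (a signal averaged over libraries), log2 fold changes with standard errors, a Wald statistic (score) and p-values, per the file headers. The submitters' processing notes name STAR, featureCounts, DESeq2 and mm10, without versions. The treatment of reads matching several places is not stated there.

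Counts of all 24 libraries were fitted with edgeR 4.0.16 (R 4.3.3, quasi-likelihood test, two-sided, TMM scaling, group as the only factor). The filter filterByExpr, at its minimum count of 10, left 12281 genes. P-values were adjusted by the Benjamini-Hochberg method over all of them, with 0.05 as the threshold for a call. Errors beside log2 ratios are standard errors, CPM ranges cover the 6 libraries of a group, and precision is limited by the 5.83 to 17.18 M counts per library. The scripts were tested on simulated data. Libraries were checked for repeated deposits: over 60 pairs the chi-square statistic per gene was 6.63 or more, far above sampling noise. Groups came from the sample titles.

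Named genes were Myocd, Mrtfa, Mrtfb and Srf, the 15 largest rises and falls among called genes (10 CPM or more on average in the higher group, and 5 or more of the 6 libraries past the other group's mean), up to 5 interactions each way, and up to 4 called members of each list. Sex-linked marker genes, clone names and pseudogenes were not named, and not every gene the rule gives is reported here. Members and lists were chosen with earlier results of these data known. Of 948 list entries 940 matched the table. Alternatives were RLE scaling, no filter, DKO and TKO libraries alone, DESeq2 1.42.0, voom of limma 3.58.1 with sample weights, a replicate block, sex as a covariate and leaving out libraries. Fits of the 11 libraries without DKO 1 were added after seeing the data.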

Additional observations from a re-analysis of the deposited data

Results flagged for a closer look

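In the genes named above, the highest or lowest library of a group of 6 stood apart from the others by a gap above the 95% critical value of Dixon's test in 32 of 180 groups. Chance flags about 1 in 20 groups. DKO 1 accounts for 23 of the 32, TKO 4 for 6, DKO 6 for 2 and TKO 3 for 1.

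DKO 1 was the highest DKO library for Srf at 105 CPM, Ptk2b at 15.98, Stk11 at 117, Pim1 at 43.1, Cmtm8 at 40.5, Art5 at 36.4, Ckm at 4160, Wnk2 at 63.9 and Cd44 at 63.7 CPM. It was also the highest for Itgb1bp2 at 534 CPM, Ndufv1 at 2967, Uqcrfs1 at 3019, Mlycd at 412, Acadvl at 3676, Gdf15 at 2, Myl3 at 15220, Tnnc1 at 3697, Clu at 908, Actc1 at 30050 and Cox10 at 208 CPM. It was the lowest for Lmo7 at 453, Spry4 at 6.59 and Tgfb3 at 4.39 CPM. TKO 4 was the highest TKO library for Ptk2b at 55.2 CPM, Pfkp at 409, Fgfr1 at 51.2, Dusp4 at 16.8, Prkar1a at 1913 and Clu at 2099 CPM. TKO 3 was the highest for Gdf15 at 11.1 CPM. DKO 6 was the lowest DKO library for Etv5 at 20.9 CPM and the highest for Gas1 at 34.5 CPM.

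By the interaction test of edgeR the log2 ratio of TKO to DKO differed from that of MKO to Ctrl by 3.55 for Krt80, 3.23 for Acta1, 2.0 for Ankrd45, 1.87 for Gipr, 1.56 for Gnao1, 1.42 for Etv5, 1.41 for Masp1, 1.24 for Tgfb2, 1.16 for Rcan1, 1.10 for Fhl1, 0.86 for Sorbs2, 0.74 for Cacna1g, 0.56 for Gabarapl1, -1.20 for Egflam and -1.49 for Gas1.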

How the results depend on the processing

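Direction and call of the named genes held in 3016 of 3226 checks over the alternatives, 208 lost the call and 2 changed sign. Of the 3226 checks, 2278 left out 1 library. In the fit of the DKO and TKO libraries alone 53 of 94 checks held, and 41 lost the call. That fit called 269 genes (216 higher, 53 lower). The count between TKO and DKO was 780 with RLE scaling, 641 without the filter on low counts, 1174 with DESeq2 (717 higher, 457 lower), 1561 with voom and sample weights (857 higher, 704 lower), 1233 with sex as a covariate (753 higher, 480 lower) and 1239 without Ctrl 3 and DKO 1. On the 11 libraries without DKO 1, added after seeing the data, it was 1515 with DESeq2 and 1005 with edgeR. Leaving out single libraries gave 495 (without TKO 4) to 1100 (without DKO 1). The interaction count of 57 was 60 with RLE scaling, 43 without the filter, 187 with DESeq2, 762 with voom (203 upward, 559 downward), 99 with sex as a covariate and 130 without Ctrl 3 and DKO 1, and 14 (without DKO 2) to 585 (without Ctrl 2) when single libraries were left out. The interaction could not be fitted on DKO and TKO alone.

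The replicate numbers of the titles did not pair the DKO with the TKO libraries. Same-numbered DKO and TKO libraries had correlations of their deviations from -0.067 to 0.092. No DKO library correlated best with the TKO library of its own number. Pairing of Ctrl with MKO libraries, the other side of the interaction, was not tested. With the replicate block 908 genes were called between TKO and DKO and 175 for the interaction (82 upward, 93 downward). Of the named genes the block changed the call of Stk11.

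Values near 0 changed sign for Mkl1 between TKO and DKO (-0.021 with voom, and from -0.013 without TKO 4 to 0.175 without DKO 6) and for Mkl2 in the interaction (from -0.021 without TKO 2 to 0.099 without TKO 4, and -0.004 without MKO 6). The cause of these shifts was not tested. Depth limits genes of a few CPM, such as Dusp4 and Gdf15, whose values rest on few reads per library.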
